A study of Mus musculus with 15 samples.

Results

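The genes described here are 42 symbols of the unfolded protein and amino acid stress responses, chosen by name: the sensors of misfolded protein and of uncharged tRNA, the transcription factors they act through, genes known as ATF4 targets, cytosolic tRNA synthetases, and genes known as ATF6 or XBP1 targets of the endoplasmic reticulum (ER). Probes were found through the RefSeq accession each probe carries. Of the 42 symbols, 41 matched a gene with a probe and all 41 were measured, among 13390 genes tested and 20145 genes with a named probe. The symbol Vldlr2 matched no gene and has no value. Of the 41, 40 were well above background on all 15 arrays, so the filter on dim probes bore on 1 member, Yars. Yars passed it through NASH CD11c-positive cells alone, where it is highest, so its calls are set by the filter and are no support.

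The study sorted macrophages from livers of male mice by high F4/80 and then by CD11c, the integrin alpha X chain, and hybridised their RNA to one-colour Agilent arrays, with 5 arrays in each of 3 groups. The first group was CD11c-negative cells of wildtype mice on standard diet, whose age the labels do not state. The other two were CD11c-negative and CD11c-positive cells of mice lacking the melanocortin 4 receptor (MC4R-KO) that were fed Western diet for 20 weeks from 8 weeks of age and whose livers were labelled as non-alcoholic steatohepatitis (NASH). Genotype and diet changed together, so their effects cannot be told apart in either comparison with wildtype, and CD11c status changed as well in the comparison of NASH CD11c-positive with wildtype cells. RNA was pooled from 7 to 9 mice and 0.1 ug was labelled. Nothing in the labels says whether the arrays of a group came from separate pools, so the p-values cover only the spread between these arrays, and that spread may be technical. In sorted bulk samples, fewer cells of a type and less RNA per cell cannot be told apart.

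As background, cells sense misfolded protein in the ER through PERK (gene Eif2ak3), IRE1 (Ern1) and ATF6. PERK, and GCN2 (Eif2ak4) when amino acids run short, phosphorylate the initiation factor eIF2 alpha, which lowers general translation and raises translation of ATF4, an activator of genes for amino acid synthesis and uptake and for tRNA charging. IRE1 splices the mRNA of XBP1, and ATF6 is cleaved in the Golgi, and both products then activate genes for ER chaperones, disulfide isomerases and degradation of misfolded protein. Splicing, cleavage and phosphorylation leave no trace in these array signals, which measure total mRNA.

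Promoter sequences of 35 of the 41 members were found in the RefSeq table for mouse build GRCm38.p6, which is not the build named in the array files, and the 250 bases before each gene's start were searched on both strands. Searched were TGATGNAA (the C/EBP-ATF response element, CARE, read by ATF4), CCAAT and CCACG separated by 9 bases (the ER stress response element, ERSE, read by ATF6), ATTGG and CCACG separated by 1 base (ERSE-II), and TGACGTGG (the unfolded protein response element, UPRE, which holds CCACG on its other strand and can so overlap an ERSE). CARE letters were found in 2 of 12 ATF4-type promoters (Asns and Chac1), in 2 of 6 promoters of tRNA synthetases (Aars and Gars), in 1 of 12 ATF6/XBP1-type promoters (Herpud1) and in 3.907% of all 27025 promoters. ERSE letters were found in 6 of 12 ATF6/XBP1-type promoters (Hspa5, Hsp90b1, Dnajc3, Calr, Canx and Pdia6), in 0 of 12 ATF4-type promoters, in 0 of 6 promoters of tRNA synthetases and in 0.13% of all promoters. ERSE-II letters were found in Herpud1 and in 0.037% of all promoters, and UPRE letters in no member and 0.603% of all. A match describes the letters of the window and is neither a bound site nor a cause. The 5 promoters shown pair members with the same letters whose signals went opposite ways, Asns with Chac1 and Hspa5 with Dnajc3, and add Herpud1, which holds letters of both kinds. The pairs were picked for that contrast. Of the ERSE members, Dnajc3 alone was lower than wildtype in NASH CD11c-negative cells, and all others were higher. Of the CARE members, Asns, Gars and Herpud1 were higher there, Chac1 was lower and Aars did not pass. Matches are in capitals.
Asns (chr6:7693210-7693459, minus strand, CARE 23 bases before the start): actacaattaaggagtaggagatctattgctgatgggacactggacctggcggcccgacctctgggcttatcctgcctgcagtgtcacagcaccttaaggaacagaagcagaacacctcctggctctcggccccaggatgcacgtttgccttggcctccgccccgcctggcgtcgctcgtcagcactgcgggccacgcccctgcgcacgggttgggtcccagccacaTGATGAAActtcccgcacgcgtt
Chac1 (chr2:119350992-119351241, plus strand, CARE on the opposite strand 193 bases before the start): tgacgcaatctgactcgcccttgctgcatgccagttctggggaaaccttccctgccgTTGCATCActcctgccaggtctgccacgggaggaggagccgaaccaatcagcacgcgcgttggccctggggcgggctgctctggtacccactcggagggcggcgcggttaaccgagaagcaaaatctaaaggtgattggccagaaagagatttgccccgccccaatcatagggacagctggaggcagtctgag
Hspa5 (chr2:34771840-34772089, plus strand, ERSE 65 bases before the start): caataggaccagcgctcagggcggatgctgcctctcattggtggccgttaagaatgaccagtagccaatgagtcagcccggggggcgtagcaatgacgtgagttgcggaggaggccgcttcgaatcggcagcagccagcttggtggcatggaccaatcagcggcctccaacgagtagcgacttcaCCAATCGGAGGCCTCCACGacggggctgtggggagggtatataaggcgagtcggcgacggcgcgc
Dnajc3 (chr14:118937682-118937931, plus strand, ERSE 105 bases before the start): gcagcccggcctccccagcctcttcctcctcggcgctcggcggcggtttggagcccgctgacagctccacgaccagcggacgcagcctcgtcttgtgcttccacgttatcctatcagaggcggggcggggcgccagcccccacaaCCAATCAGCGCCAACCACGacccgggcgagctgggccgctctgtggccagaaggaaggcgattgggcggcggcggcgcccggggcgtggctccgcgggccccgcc
Herpud1 (chr8:94386179-94386428, plus strand, CARE on the opposite strand and ERSE-II 112 and 52 bases before the start): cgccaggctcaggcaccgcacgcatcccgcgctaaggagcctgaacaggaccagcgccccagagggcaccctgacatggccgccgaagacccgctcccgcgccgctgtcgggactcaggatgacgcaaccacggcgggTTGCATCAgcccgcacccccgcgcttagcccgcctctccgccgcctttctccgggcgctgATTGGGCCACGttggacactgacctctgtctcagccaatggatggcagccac

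Signals are given as the log2 processed signal of a gene's probe minus the 75th percentile of its array, which was 358.6 to 562.4 in raw intensity. Between 45.8 and 58.0% of spots were well above background, no spot was saturated, and the number of arrays limits the precision. The signal of Itgax, which encodes CD11c, averaged 4.21 in wildtype, 5.93 in NASH CD11c-negative and 7.29 in NASH CD11c-positive cells, and that of Adgre1, which encodes F4/80, 7.34, 7.74 and 7.31. Mc4r was not above background on any of the 15 arrays, so it checks no genotype. Of 12 Kupffer cell markers 11 were well above background on all 15 arrays. Marker lists of other cell types differed between the groups and are set beside the members here, as sums of signal in units of the array's 75th percentile. The Kupffer cell sum was 2910 to 3175 in wildtype, 1794 to 1973 in NASH CD11c-negative and 1395 to 1524 in NASH CD11c-positive cells. The sum of 10 measured neutrophil markers was 419 to 438, 1657 to 1814 and 667 to 701 in the same order, with 9 markers above and 1 below wildtype in NASH CD11c-negative cells. The sum of 10 conventional dendritic cell markers was 83.8 to 93.0, 46.8 to 52.7 and 105 to 116, and Xcr1 and Mycl were not above background in NASH CD11c-negative cells. The sum of 10 measured B cell and plasma cell markers was 66.5 to 75.1, 43.3 to 50.7 and 28.9 to 31.7. Of these markers 2 were above and 7 below wildtype in NASH CD11c-negative cells, and 2 above and 8 below in NASH CD11c-positive cells. The largest rise was a log2 difference of 1.35 in the former and 2.69 in the latter. The part of these cells in the members' values was not tested.

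Among the members, Asns of asparagine synthesis and Psat1 of serine synthesis rose most in NASH cells, while Chac1, Phgdh and the sensors Ern1 and Eif2ak4 fell. In NASH CD11c-negative against wildtype cells, 28 of 41 members were higher and 8 lower at a limma adjusted p under 0.05, and 5 did not pass. Of all genes tested, 76.8% passed in that comparison, 48.3% higher and 28.5% lower, so a count near these shares is no result about the members. NASH CD11c-positive cells had 29 members higher and 5 lower than wildtype cells, against 77.6% of all genes passing, 51.4% higher and 26.3% lower. Between the NASH groups, 20 members were higher and 6 lower in CD11c-positive cells (without Yars the members higher were 27, 28 and 19 of 40 in these 3 comparisons), against 53.1% of all genes passing, 29.9% higher and 23.2% lower. The median log2 difference of the members was 0.31, 0.35 and 0.11 in the comparisons in this order, and that of all genes 0.13, 0.16 and 0.01. Against wildtype the median over all genes rose with signal. At mean signals of 2 to 4, 4 to 6 and over 6 it was 0.22, 0.35 and 0.45 in NASH CD11c-negative cells. In NASH CD11c-positive cells it was 0.25, 0.33 and 0.33. These bins hold 12, 7 and 5 members, so a member median above that of all genes is no result by itself. The 3 comparisons share their groups and are not independent of each other.

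**Figure D1:**
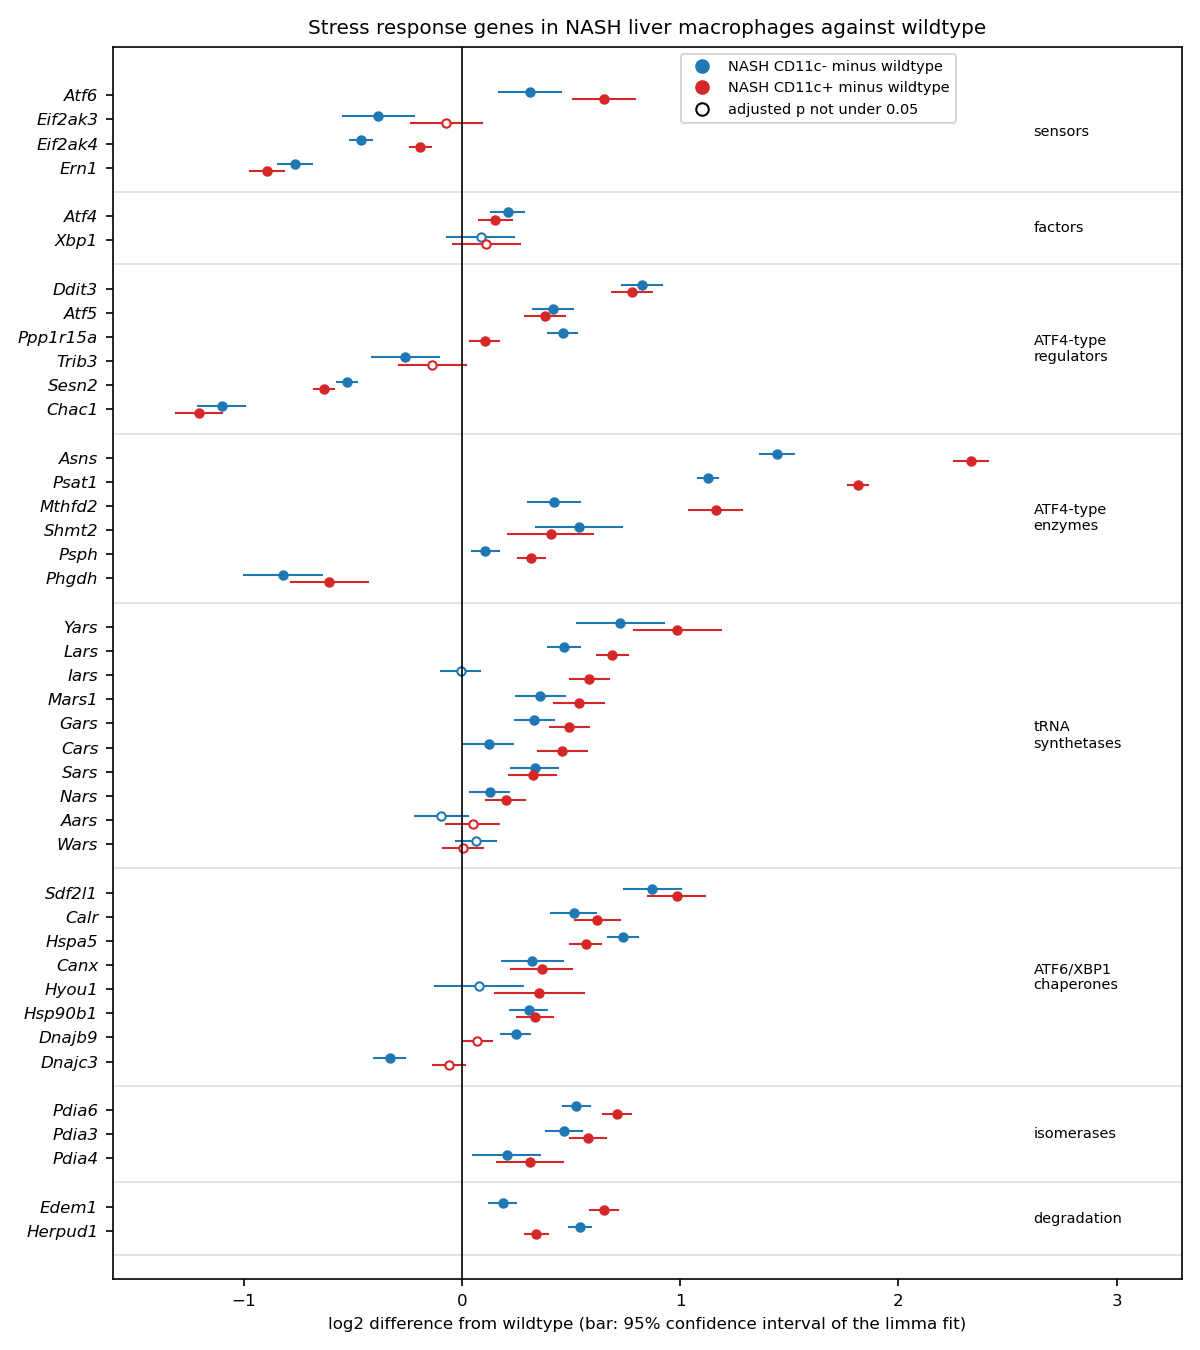
The 41 measured members by role. Each point is the log2 difference of NASH CD11c-negative (blue) or NASH CD11c-positive (red) from wildtype cells, with the 95% confidence interval of the limma fit, and open points did not pass at an adjusted p of 0.05. Asns and Psat1 lie farthest to the right and Chac1 farthest to the left, while the tRNA synthetases and the ER genes lie mostly between 0 and 1. Yars was not above background in wildtype cells, so its points are not measured differences.

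The 4 sensors did not move as a group. Atf6 mRNA was the only sensor that rose against wildtype. Its signal on the 5 wildtype arrays was -0.20, -0.21, -0.15, 0.06 and 0.00, on the NASH CD11c-negative arrays 0.16, 0.17, 0.13, 0.33 and 0.28, and on the NASH CD11c-positive arrays 0.46, 0.41, 0.65, 0.66 and 0.58. No array of one group overlapped those of another, and both steps passed, by 0.31 ± 0.07 (SE) against wildtype (adjusted p = 0.000559) and by a further 0.34 ± 0.07 in CD11c-positive cells (adjusted p = 0.000569). Ern1, whose product IRE1 is the nuclease that starts XBP1 splicing, went the other way. It measured 1.08, 1.00, 1.03, 1.00 and 1.12 on the wildtype arrays, 0.23, 0.29, 0.23, 0.32 and 0.33 on the NASH CD11c-negative arrays and 0.13, 0.09, 0.12, 0.18 and 0.26 on the NASH CD11c-positive arrays. All NASH arrays lay below all wildtype arrays. The NASH groups overlapped over both slides, and their difference of -0.13 ± 0.04 passed (adjusted p = 0.00975). Ern1 was 1.70-fold lower in NASH CD11c-negative cells (log2 difference -0.77 ± 0.04, adjusted p = 1.01e-10) and 1.86-fold lower in NASH CD11c-positive cells (-0.89 ± 0.04, adjusted p = 1.39e-11).

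The sensors Eif2ak3 and Eif2ak4, both eIF2 alpha kinases, were lowest in NASH CD11c-negative cells. The other eIF2 alpha kinases, Eif2ak1 and Eif2ak2, were lowest in wildtype, with means of 0.29, 0.38 and 0.62 and of 1.37, 1.49 and 1.73. Eif2ak4, the GCN2 kinase that uncharged tRNA activates, measured 1.86, 1.89, 1.89, 1.89 and 1.92 on the wildtype arrays, 1.40, 1.43, 1.38, 1.45 and 1.47 on the NASH CD11c-negative arrays and 1.70, 1.71, 1.72, 1.69 and 1.68 on the NASH CD11c-positive arrays. The 3 groups did not overlap, with a fall of 0.46 ± 0.02 on the log2 scale from wildtype to NASH CD11c-negative cells (adjusted p = 1.33e-10) and a signal 0.27 ± 0.02 higher in the CD11c-positive than in the CD11c-negative NASH cells (adjusted p = 1.98e-07). CD11c-positive cells stayed below wildtype by a log2 difference of -0.19 ± 0.02 (adjusted p = 2.34e-06). Eif2ak3, the PERK kinase of the ER membrane, averaged 1.41 ± 0.12 (SD, n = 5) in wildtype, 1.03 ± 0.12 in NASH CD11c-negative and 1.34 ± 0.13 in NASH CD11c-positive cells. Its fall in NASH CD11c-negative cells passed (adjusted p = 0.000324), and its difference between NASH CD11c-positive and wildtype cells did not (adjusted p = 0.391, 95% confidence interval of the log2 difference -0.24 to 0.09). With the slide as a block that last difference was -0.11 and passed. The dendritic cell sum was also lowest in NASH CD11c-negative cells, and its part in the values of Eif2ak3 and Eif2ak4 was not tested.

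Of the 2 transcription factors, Atf4 was slightly higher in NASH cells and Xbp1 did not pass. Atf4 averaged 6.49 ± 0.06 in wildtype, 6.70 ± 0.04 in NASH CD11c-negative and 6.64 ± 0.05 in NASH CD11c-positive cells (SD, n = 5), higher than wildtype by 0.21 and 0.15 on the log2 scale (adjusted p = 7.25e-05 and 0.00110). A second, dimmer Atf4 probe gave 0.15 and 0.28. Between the NASH groups it gave 0.13, where the brighter probe gave -0.06, so the order of the NASH groups differs between probes. ATF4 is controlled mainly at translation, which this assay does not measure. Under quantile normalization both differences of Atf4 changed sign, to -0.27 and -0.25. Xbp1 averaged 5.80 ± 0.13, 5.88 ± 0.13 and 5.91 ± 0.08, and neither difference from wildtype passed, with 95% confidence intervals of -0.07 to 0.24 and -0.04 to 0.27. Quantile normalization put Xbp1 lower in NASH cells, by -0.35 and -0.26. The Xbp1 probe measures total Xbp1 mRNA, and how much of it was spliced was not measured.

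The ATF4-type genes split into enzymes that rose and regulators that went both ways. Of the 6 amino acid and one-carbon enzymes, 5 were higher and 1 lower than wildtype in each NASH group, and 5 were higher in CD11c-positive than in CD11c-negative NASH cells, with 1 not passing. Among all genes tested, 48.3, 51.4 and 29.9% were higher in these comparisons. Of the 5 enzymes higher between the NASH groups, Phgdh (0.21, adjusted p = 0.0435) no longer passed under 14 of 27 alternatives. The median log2 difference of the 6 enzymes from wildtype was 0.48 in NASH CD11c-negative cells and 0.78 in NASH CD11c-positive cells. Asns, which makes asparagine from aspartate and glutamine, had the largest difference of all members. It measured -0.94, -0.95, -0.97, -0.80 and -0.86 on the wildtype arrays, 0.55, 0.47, 0.51, 0.55 and 0.62 on the NASH CD11c-negative arrays and 1.38, 1.41, 1.45, 1.44 and 1.45 on the NASH CD11c-positive arrays. The groups were far apart relative to their SDs of 0.07, 0.06 and 0.03. Asns was 2.72-fold higher in NASH CD11c-negative than in wildtype cells (log2 difference 1.44 ± 0.04, adjusted p = 6.55e-14), 1.85-fold higher in CD11c-positive than in CD11c-negative NASH cells (0.89 ± 0.04, adjusted p = 7.01e-11) and 5.03-fold higher in NASH CD11c-positive than in wildtype cells (2.33 ± 0.04, adjusted p = 2.39e-16). Within slide 1 and slide 2 the last log2 difference was 2.35 and 2.28.

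The 3 enzymes of serine synthesis from 3-phosphoglycerate did not move together. Phgdh, which catalyses the first step, fell in NASH cells. It measured -0.26, 0.07, -0.45, -0.30 and -0.31 on the wildtype arrays, -0.99, -0.95, -1.27, -1.09 and -1.05 on the NASH CD11c-negative arrays and -0.88, -0.85, -0.80, -0.80 and -0.96 on the NASH CD11c-positive arrays. All NASH arrays lay below the lowest wildtype array, by log2 differences of -0.82 ± 0.08 (adjusted p = 3.95e-07) and -0.61 ± 0.08 (adjusted p = 8.91e-06) in CD11c-negative and CD11c-positive cells. A second Phgdh probe gave -0.60 and -0.52. Psat1, the transaminase of the second step, rose in both steps of the design. It measured 0.26, 0.22, 0.21, 0.21 and 0.27 in wildtype, 1.37, 1.34, 1.35, 1.36 and 1.39 in NASH CD11c-negative and 2.07, 2.06, 2.05, 2.06 and 2.02 in NASH CD11c-positive cells. The SD within a group was at most 0.03, beside log2 differences of 1.13 ± 0.02 (adjusted p = 3.62e-15) and 0.69 ± 0.02 (adjusted p = 3.85e-12) for the first step and the second, and 1.82 ± 0.02 for NASH CD11c-positive against wildtype cells (3.52-fold, adjusted p = 1.73e-17). A second Psat1 probe gave 0.96, 0.55 and 1.50. Psph, the phosphatase of the last step, was higher by only 0.11 ± 0.03 (adjusted p = 0.00384) and 0.32 ± 0.03 (adjusted p = 1.16e-07) than in wildtype.

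The mitochondrial folate enzymes Mthfd2 and Shmt2, which pass on the one-carbon unit of serine, both rose against wildtype, and between the NASH groups Mthfd2 passed and Shmt2 did not. Mthfd2 measured -0.62, -0.65, -0.53, -0.52 and -0.60 in wildtype, -0.20, 0.06, -0.35, -0.17 and -0.13 in NASH CD11c-negative and 0.58, 0.57, 0.62, 0.56 and 0.58 in NASH CD11c-positive cells. The CD11c-negative arrays were spread more widely than the others and still overlapped neither group. Mthfd2 was 1.34-fold higher in NASH CD11c-negative than in wildtype cells (0.42 ± 0.06, adjusted p = 7.20e-06) and a further 1.67-fold higher in CD11c-positive cells (0.74 ± 0.06, adjusted p = 6.26e-08). Shmt2 averaged 0.75 ± 0.16 in wildtype, 1.29 ± 0.18 in NASH CD11c-negative and 1.16 ± 0.11 in NASH CD11c-positive cells (SD, n = 5). It was higher than wildtype in both (adjusted p = 8.38e-05 and 0.000904), and its difference between the NASH groups did not pass (-0.13, 95% confidence interval -0.33 to 0.07, adjusted p = 0.249).

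**Figure D2:**
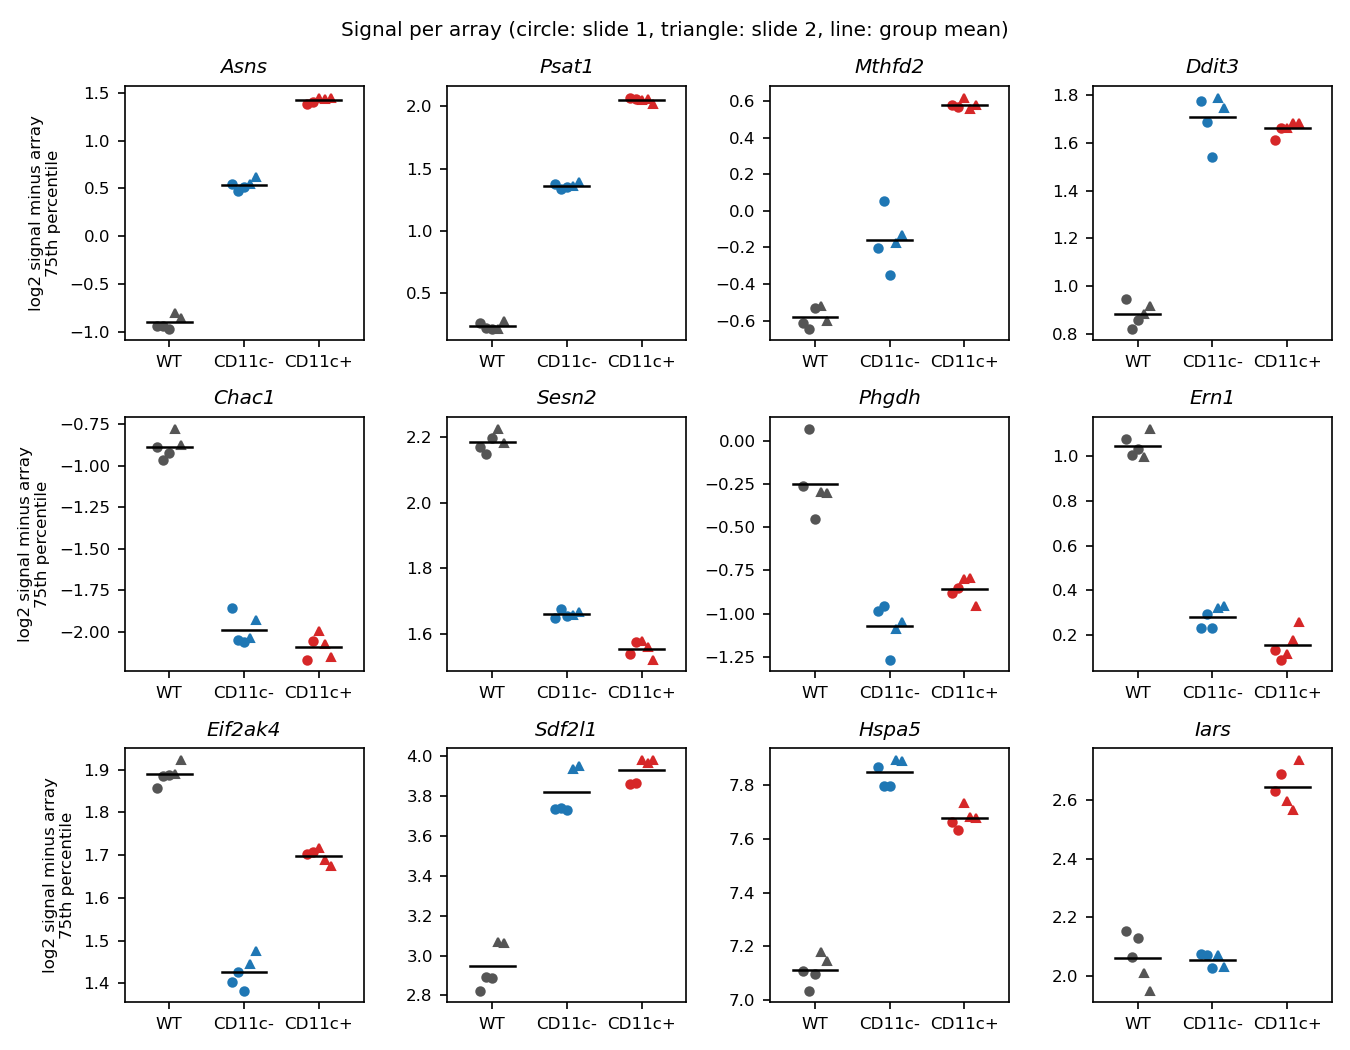
Signal of 12 members on each of the 15 arrays, as log2 processed signal minus the array's 75th percentile, on axes that differ between panels and do not start at 0. Circles are arrays of slide 1, triangles arrays of slide 2 and lines group means. Asns, Psat1 and Mthfd2 step up from wildtype to NASH CD11c-negative to NASH CD11c-positive cells, Chac1, Sesn2 and Ern1 drop in both NASH groups, and Eif2ak4 is lowest in NASH CD11c-negative cells.

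Of the 6 ATF4-type regulators and feedback genes, NASH CD11c-negative cells had 3 above and 3 below wildtype, and 3 higher and 2 lower in NASH CD11c-positive cells, with 1 not passing. Among all genes tested, 48.3 and 51.4% were higher and 28.5 and 26.3% lower in these comparisons, so the counts are near those shares. Ddit3, which encodes the transcription factor CHOP, rose. It measured 0.95, 0.82, 0.86, 0.88 and 0.92 in wildtype, 1.78, 1.69, 1.54, 1.79 and 1.75 in NASH CD11c-negative and 1.61, 1.66, 1.66, 1.68 and 1.69 in NASH CD11c-positive cells. The NASH groups overlapped each other and lay above all wildtype arrays, with Ddit3 1.77-fold (0.83 ± 0.04, adjusted p = 2.29e-10) and 1.71-fold (0.78 ± 0.04, adjusted p = 3.65e-10) higher. Atf5, a transcription factor that is itself controlled at translation, was higher by 0.42 ± 0.04 and 0.38 ± 0.04 (adjusted p = 4.73e-07 and 1.14e-06). Ppp1r15a, the GADD34 subunit that directs a phosphatase to eIF2 alpha, was highest in NASH CD11c-negative cells.

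The Ppp1r15a arrays read 6.63, 6.60, 6.60, 6.69 and 6.71 in wildtype, 7.07, 7.09, 7.08, 7.17 and 7.13 in NASH CD11c-negative and 6.71, 6.71, 6.79, 6.78 and 6.75 in NASH CD11c-positive cells. Its difference between the NASH groups was -0.36 ± 0.03 (adjusted p = 2.52e-07) and passed under every alternative processing tried. Its rise of 0.46 ± 0.03 against wildtype (adjusted p = 4.00e-09) did not: under quantile normalization it was -0.03 in NASH CD11c-negative and -0.30 in NASH CD11c-positive cells. The neutrophil sum was also highest in NASH CD11c-negative cells, and its part in the Ppp1r15a values was not tested.

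Chac1, Sesn2 and Trib3, which are also known as ATF4 targets, were lower in NASH CD11c-negative than in wildtype cells. Chac1 encodes an enzyme that degrades glutathione. It measured -0.89, -0.97, -0.93, -0.78 and -0.87 in wildtype, -1.86, -2.05, -2.06, -2.04 and -1.93 in NASH CD11c-negative and -2.17, -2.05, -2.00, -2.08 and -2.15 in NASH CD11c-positive cells. All NASH arrays were lower than all wildtype arrays and the NASH groups overlapped, with Chac1 2.15-fold (-1.10 ± 0.05, adjusted p = 4.21e-11) and 2.30-fold (-1.20 ± 0.05, adjusted p = 1.18e-11) lower than in wildtype. Sesn2, which encodes a leucine-binding inhibitor of mTORC1 signalling, measured 2.17, 2.15, 2.20, 2.23 and 2.18 in wildtype, 1.65, 1.67, 1.66, 1.66 and 1.67 in NASH CD11c-negative and 1.54, 1.57, 1.58, 1.56 and 1.52 in NASH CD11c-positive cells. Its 3 groups did not overlap, with differences of -0.53 ± 0.02 (adjusted p = 1.50e-11) and -0.63 ± 0.02 (adjusted p = 1.45e-12) from wildtype. Trib3, a pseudokinase that inhibits ATF4 and CHOP, was lower by -0.26 ± 0.07 in NASH CD11c-negative cells (adjusted p = 0.00411) and did not pass in NASH CD11c-positive cells (-0.14, 95% confidence interval -0.29 to 0.02, adjusted p = 0.0967), where with the slide as a block it was -0.17 and passed. Asns and Chac1, both with CARE letters in their promoter windows, thus moved in opposite directions in the same samples. The B cell and plasma cell sum and the Kupffer cell sum fell along with Chac1, Sesn2 and Ern1, and their part was not tested.

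Of the 10 cytosolic tRNA synthetases, which charge tRNAs with their amino acids, 7 were higher in NASH CD11c-negative and 8 in NASH CD11c-positive than in wildtype cells, 7 were higher in CD11c-positive than in CD11c-negative NASH cells, and none was called lower in any comparison. Without Yars these counts were 6, 7 and 6 of 9, beside 48.3, 51.4 and 29.9% of all genes tested that were higher. The median log2 difference was 0.23, 0.48 and 0.17 with Yars and 0.13, 0.46 and 0.16 without it, and no synthetase reached a measured fold of 2. All genes tested with a mean signal of 2 to 4 had medians of 0.22, 0.25 and 0.04 in these comparisons. Iars, for isoleucine, was higher in NASH CD11c-positive cells than in either other group. It measured 2.15, 2.06, 2.13, 2.01 and 1.95 in wildtype, 2.08, 2.07, 2.03, 2.07 and 2.03 in NASH CD11c-negative and 2.63, 2.69, 2.60, 2.56 and 2.74 in NASH CD11c-positive cells. The CD11c-positive arrays all lay above the rest, by 0.59 ± 0.04 over NASH CD11c-negative cells (1.50-fold, adjusted p = 2.98e-08), while NASH CD11c-negative and wildtype cells differed by -0.01 (95% confidence interval -0.09 to 0.08, adjusted p = 0.903). Lars, for leucine, was higher than wildtype by 0.47 ± 0.03 (adjusted p = 9.54e-09) and 0.69 ± 0.03 (adjusted p = 9.20e-11).

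Gars (glycine) was higher than wildtype by 0.33 and 0.49 in NASH CD11c-negative and CD11c-positive cells, Mars1 (methionine) by 0.36 and 0.54, Sars (serine) by 0.33 and 0.32, Cars (cysteine) by 0.12 and 0.46 and Nars (asparagine) by 0.13 and 0.20, all with SEs of 0.04 to 0.05 and passing. The Cars rise in NASH CD11c-negative cells no longer passed under 10 of 27 alternatives, and under quantile normalization it reversed to -0.10. Aars (alanine) and Wars (tryptophan) did not pass against wildtype in either NASH group, at -0.09 and 0.05 for Aars and 0.07 and 0.00 for Wars. A second, dimmer Wars probe, above background on all 15 arrays, gave 0.25 and 0.21, so the 2 Wars probes differ. With the slide as a block the Aars value of -0.09 in NASH CD11c-negative cells passed as lower, as it did under 6 of 27 alternatives in all. Between the NASH groups Aars was higher by 0.14 in CD11c-positive cells and no longer passed under 11 of 27 alternatives. Yars (tyrosine) was the dimmest member, well above background on 0 of 5 wildtype, 3 of 5 NASH CD11c-negative and 4 of 5 NASH CD11c-positive arrays, with measured means of -4.31, -3.58 and -3.32. Its NASH means were also set against the dimmest signal that still passed as above background on each wildtype array. They lay 1.33-fold higher in NASH CD11c-negative and 1.60-fold higher in NASH CD11c-positive cells, given as a description with no test. These folds are not lower bounds, as the NASH means include arrays where Yars was not above background. With normexp background correction the Yars log2 difference of NASH CD11c-positive from wildtype cells was 0.12. Under quantile normalization the counts of synthetases higher and lower than wildtype became 3 and 4 in NASH CD11c-negative and 6 and 2 in NASH CD11c-positive cells, and between the NASH groups they were 7 and 0.

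The ATF6/XBP1-type genes mostly rose in both NASH groups, with smaller differences between these groups, and bright genes as a whole rose too. Of 13, 11 were higher than wildtype in each NASH group, 1 was lower in NASH CD11c-negative cells (Dnajc3) and none in NASH CD11c-positive cells. Between the NASH groups 5 were higher and 3 lower in CD11c-positive cells. Among all genes tested, 48.3 and 51.4% were higher than wildtype in the NASH CD11c-negative and CD11c-positive cells. Between the NASH groups 29.9% of all genes were higher and 23.2% lower in CD11c-positive cells. The median log2 difference was 0.32 and 0.37 against wildtype and 0.11 between the NASH groups, and no gene reached a fold of 2. All genes tested were binned by mean signal, at 2 to 4, 4 to 6 and over 6. Their median difference from wildtype was 0.22, 0.35 and 0.45 in NASH CD11c-negative cells. In NASH CD11c-positive cells it was 0.25, 0.33 and 0.33, so a rise of this size in a bright gene is no result about ER genes. Under quantile normalization the counts higher and lower than wildtype were 5 and 2 in NASH CD11c-negative and 7 and 2 in NASH CD11c-positive cells.

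Hspa5 encodes BiP, the abundant ER chaperone that holds the sensors inactive. It measured 7.11, 7.03, 7.10, 7.18 and 7.14 in wildtype, 7.87, 7.80, 7.80, 7.90 and 7.89 in NASH CD11c-negative and 7.66, 7.63, 7.73, 7.68 and 7.68 in NASH CD11c-positive cells. The groups did not overlap, and the NASH CD11c-negative arrays were highest, with Hspa5 1.67-fold above wildtype (0.74 ± 0.03, adjusted p = 3.50e-11). In NASH CD11c-positive cells it was 1.48-fold above wildtype (0.57 ± 0.03, adjusted p = 5.62e-10). Under quantile normalization these log2 differences were 0.26 and 0.23, and the difference between the NASH groups, -0.17 as reported here, was -0.03 and did not pass. Sdf2l1, an ER protein that works with BiP and its co-chaperones, had the largest rise of the ER genes. It measured 2.82, 2.89, 2.89, 3.07 and 3.06 in wildtype, 3.73, 3.74, 3.73, 3.94 and 3.95 in NASH CD11c-negative and 3.86, 3.87, 3.98, 3.96 and 3.98 in NASH CD11c-positive cells. In wildtype and NASH CD11c-negative cells the arrays of slide 2 were the higher ones, and the difference from wildtype was 0.87 and 0.88 within slide 1 and slide 2 in NASH CD11c-negative cells and 1.00 and 0.91 in NASH CD11c-positive cells. Over both slides Sdf2l1 was 1.83-fold (0.87 ± 0.06, adjusted p = 6.38e-09) and 1.98-fold (0.98 ± 0.06, adjusted p = 1.40e-09) higher than in wildtype.

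The lectin chaperones Calr and Canx, which fold glycoproteins, were higher than wildtype by 0.51 ± 0.05 and 0.32 ± 0.07 in NASH CD11c-negative and by 0.62 ± 0.05 and 0.37 ± 0.07 in NASH CD11c-positive cells. Hsp90b1, the ER form of HSP90, was higher by 0.31 ± 0.04 and 0.34 ± 0.04, with a sign that turned under quantile normalization, to -0.17 and -0.07. Hyou1, a nucleotide exchange factor of BiP, did not pass in NASH CD11c-negative cells (0.08, 95% confidence interval -0.13 to 0.28, adjusted p = 0.465) and was higher by 0.36 ± 0.09 in NASH CD11c-positive cells (adjusted p = 0.00329), where its arrays overlapped those of wildtype. The BiP co-chaperones Dnajb9 and Dnajc3 went apart. Dnajc3 measured 2.61, 2.52, 2.66, 2.65 and 2.67 in wildtype, 2.28, 2.32, 2.25, 2.27 and 2.33 in NASH CD11c-negative and 2.61, 2.53, 2.54, 2.51 and 2.61 in NASH CD11c-positive cells. Its NASH CD11c-negative arrays all lay below the others, by -0.33 ± 0.03 against wildtype (adjusted p = 3.76e-07), and NASH CD11c-positive and wildtype cells did not pass (-0.06, 95% confidence interval -0.13 to 0.01, adjusted p = 0.117).

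Dnajb9 was higher by 0.25 ± 0.03 in NASH CD11c-negative cells (adjusted p = 4.16e-06) on the brighter of its probes, and a second probe gave -0.35 there and -0.70 in NASH CD11c-positive cells, so its direction is uncertain. Hspa5 and Dnajc3, with ERSE letters in their promoter windows, moved in opposite directions in NASH CD11c-negative cells. The other members with ERSE letters, Hsp90b1, Calr, Canx and Pdia6, were higher there, as Hspa5 was. The 3 disulfide isomerases, which form and rearrange disulfide bonds, rose in both NASH groups. Pdia6 was higher than wildtype by 0.52 ± 0.03 and 0.71 ± 0.03 (adjusted p = 5.42e-10 and 1.37e-11), Pdia3 by 0.47 ± 0.04 and 0.58 ± 0.04 (adjusted p = 4.24e-08 and 3.58e-09) and Pdia4 by 0.20 ± 0.07 and 0.31 ± 0.07 (adjusted p = 0.0171 and 0.00103). A second Pdia6 probe gave 0.39 and 0.66.

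The genes of ER-associated degradation peaked in different NASH groups. Herpud1, a membrane protein of the degradation complex, measured 4.68, 4.61, 4.62, 4.67 and 4.68 in wildtype, 5.16, 5.22, 5.16, 5.21 and 5.21 in NASH CD11c-negative and 5.00, 4.99, 5.02, 4.99 and 4.96 in NASH CD11c-positive cells. The NASH CD11c-negative arrays were the highest, 0.54 ± 0.02 above wildtype (adjusted p = 3.79e-11), and CD11c-positive cells lay below them by -0.20 ± 0.02 (adjusted p = 7.00e-06). Edem1, which hands misfolded glycoproteins to degradation, measured 1.98, 1.89, 2.00, 1.98 and 2.02 in wildtype, 2.17, 2.14, 2.08, 2.20 and 2.20 in NASH CD11c-negative and 2.62, 2.61, 2.60, 2.63 and 2.65 in NASH CD11c-positive cells. Here the CD11c-positive arrays were the highest, 0.46 ± 0.03 above NASH CD11c-negative (adjusted p = 1.10e-08) and 0.65 ± 0.03 above wildtype cells (adjusted p = 4.53e-11). Hspa5 and Herpud1 shared with the neutrophil sum that they were highest in NASH CD11c-negative cells, and its part in them was not tested.

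Set side by side, the ATF4-type genes differed from the ER genes in their spread and less in their middle. Log2 differences of the 12 ATF4-type genes in NASH CD11c-negative against wildtype cells ran from -1.10 to 1.44 with an SD between genes of 0.77 and a median of 0.42. Those of the 13 ATF6/XBP1-type genes ran from -0.33 to 0.87 with an SD of 0.31 and a median of 0.32. The tRNA synthetases without Yars, 9 genes, ran from -0.09 to 0.47, with an SD of 0.19 and a median of 0.13. In NASH CD11c-positive against wildtype cells the ranges were -1.20 to 2.33, -0.06 to 0.98 and 0.00 to 0.69, and the medians 0.35, 0.37 and 0.46. Measured log2 differences of at least 1 in size, with an adjusted p that passed, occurred in 3 and 4 ATF4-type genes in the comparisons with wildtype and in 0 of the other arms. Of the 13390 genes tested, 694 were higher and 833 lower by that size in NASH CD11c-negative cells. In NASH CD11c-positive cells 891 were higher and 940 lower. Arms of so few genes say little beside these counts.

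Averaged over its genes on each array and relative to the wildtype mean, the ATF4-type arm was at 0.11 to 0.27 in NASH CD11c-negative and 0.36 to 0.42 in NASH CD11c-positive cells. The tRNA synthetases without Yars were at 0.13 to 0.26 and 0.32 to 0.40, and the ATF6/XBP1-type arm at 0.28 to 0.42 and 0.42 to 0.47. Within each slide these means did not overlap between the NASH groups in any arm. The ATF6/XBP1-type arm was at 0.28 to 0.36 against 0.42 to 0.45 on slide 1 and 0.38 to 0.42 against 0.45 to 0.47 on slide 2. Over both slides 1 array of each NASH group overlapped in that arm. The mean of the ATF4-type arm joins genes of opposite sign, and its median over genes gave another order, at 0.28 to 0.47 in NASH CD11c-negative and 0.29 to 0.37 in NASH CD11c-positive cells. The ATF6/XBP1-type median over genes changed its order between slides. On slide 1 it was 0.256 to 0.318 in NASH CD11c-negative and 0.386 to 0.435 in NASH CD11c-positive cells. On slide 2 it was 0.435 to 0.478 and 0.397 to 0.429, so the order of the NASH groups in this arm depends on the summary. These values are descriptions of genes chosen by name, and no test was made over a list.

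**Figure D3:**
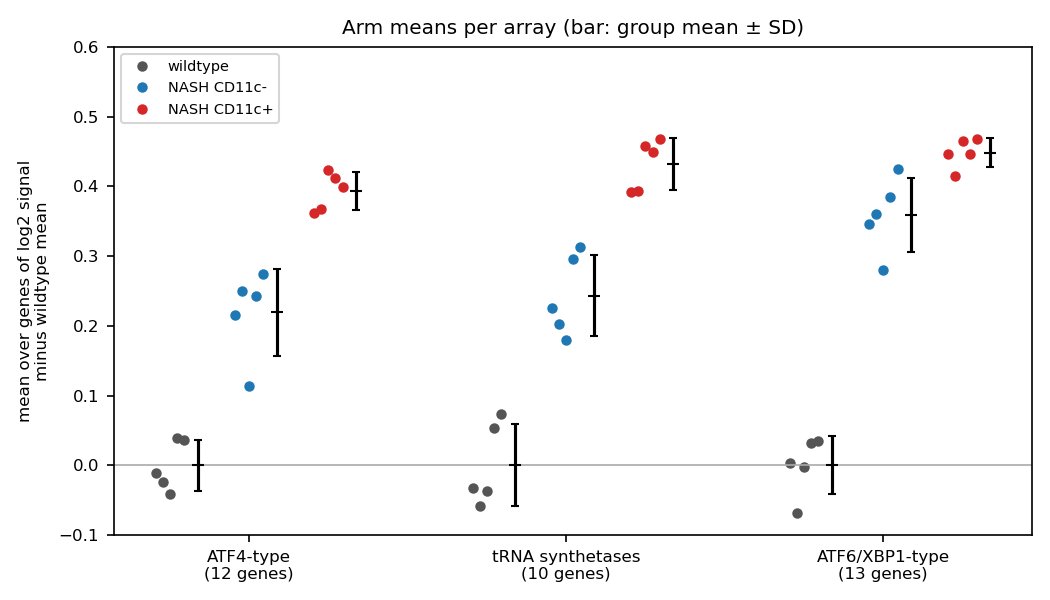
Mean over the genes of each arm of the log2 signal relative to the wildtype mean, for each array, with the group mean ± SD (n = 5). In every arm both NASH groups lie above wildtype, as do the medians of all genes (0.13 and 0.16). For all genes with a mean signal of 4 to 6 those medians were 0.35 and 0.33. The synthetase arm is drawn with Yars, and arrays of both slides are drawn together, so the overlap of the NASH groups in the ATF6/XBP1-type arm is one between slides.

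Other genes of the same pathways were taken from further lists. Of 20 other ATF4-type genes 15 were measured. Against wildtype, 9 rose and 2 fell in NASH CD11c-negative cells and 7 rose and 4 fell in NASH CD11c-positive cells, and CD11c-positive against CD11c-negative NASH cells had 3 that rose and 6 that fell. Over all genes tested, 48.3, 51.4 and 29.9% were higher in these comparisons and 28.5, 26.3 and 23.2% lower. Counts near these shares are no result about the list. The 15 genes had median log2 differences of 0.27 and 0.06 against wildtype and -0.08 between the NASH groups. Gdf15, a secreted stress cytokine, had the largest rise, by 2.05 ± 0.03 (4.14-fold, adjusted p = 1.83e-16) in NASH CD11c-negative and 2.09 ± 0.03 (4.27-fold) in NASH CD11c-positive cells, and the NASH groups did not pass between them (0.04, adjusted p = 0.237). Cth, which makes cysteine from cystathionine, was well above background on 4 of 5 wildtype arrays and on 0 of 10 NASH arrays. With the dimmest signal that passed in place of NASH values, it was 1.78-fold and 1.97-fold lower in NASH CD11c-negative and CD11c-positive cells. Slc7a11, the cystine transporter, was well above background on 4 of 5 NASH CD11c-positive arrays and on no other array. Set in the same way, it was 1.16-fold above NASH CD11c-negative cells. These folds are not lower bounds, as the means include an array where the gene was not above background. Cth and Slc7a11 each passed the filter on dim probes only through the group where they were high, so their calls in the counts above are set by it. The largest fall between the NASH groups was that of Nupr1, a stress-induced nuclear protein, by -0.49 ± 0.05.

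Of 35 measured of 36 other ATF6/XBP1-type genes, 27 rose and 4 fell against wildtype in NASH CD11c-negative cells, and 30 rose and 1 fell in NASH CD11c-positive cells. Between the NASH groups 12 were higher and 3 lower in CD11c-positive cells. Over all genes tested, 48.3, 51.4 and 29.9% were higher in these comparisons and 28.5, 26.3 and 23.2% lower. The medians of the 35 genes were 0.35 and 0.45 against wildtype and 0.06 between the NASH groups, to be read beside the medians of all genes by mean signal given above. Ero1a, an oxidase that drives disulfide formation, rose most against wildtype, by 0.75 ± 0.08 and 0.81 ± 0.08, and its relative Ero1b rose most between the NASH groups, by 0.53 ± 0.05. Derl3, a degradation channel protein that plasma cells also express and that stands in the plasma cell list, fell by -1.46 ± 0.06 and -1.35 ± 0.06 against wildtype. Ufm1 had the largest fall of the list between the NASH groups, by -0.15. Of the 10 other cytosolic tRNA synthetases 7 rose and 1 fell against wildtype in NASH CD11c-negative cells, and 8 rose and 1 fell in NASH CD11c-positive cells, and between the NASH groups 6 were higher and 2 lower in CD11c-positive cells. Beside these counts stand the same shares of all genes. Qars (glutamine) rose most, by 0.53 ± 0.04 and 0.62 ± 0.04, Eprs (glutamate and proline) rose most between the NASH groups, by 0.35 ± 0.07, and Dars (aspartate) fell in every comparison, by -0.35 and -0.54 against wildtype and by -0.18 between the NASH groups.

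Scaling mattered most for bright genes. Quantile normalization lowered the difference of NASH CD11c-negative from wildtype cells by a median of -0.46 for genes with a mean signal over 6 and of -0.07 for genes between 0 and 2, and raised it by 0.04 for genes under 0. Of the members 5 lay over 6 and 6 under 0. With it, NASH CD11c-negative cells had 15 members above and 15 below wildtype, and the share of calls over all genes that were higher went from 62.9 to 49.0%. For NASH CD11c-positive against wildtype cells that share went from 66.2 to 54.4%. Under all alternatives, 15 members kept a higher call and 8 a lower call in NASH CD11c-negative against wildtype cells. The higher ones were Asns, Psat1, Mthfd2, Shmt2, Ddit3, Atf5, Atf6, Lars, Mars1, Yars (set by the filter), Hspa5, Sdf2l1, Calr, Pdia3 and Herpud1, and the lower ones Chac1, Sesn2, Trib3, Phgdh, Ern1, Eif2ak3, Eif2ak4 and Dnajc3. In NASH CD11c-positive against wildtype cells 19 kept a higher and 5 a lower call, the latter Chac1, Sesn2, Phgdh, Ern1 and Eif2ak4.

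**Figure D4:**
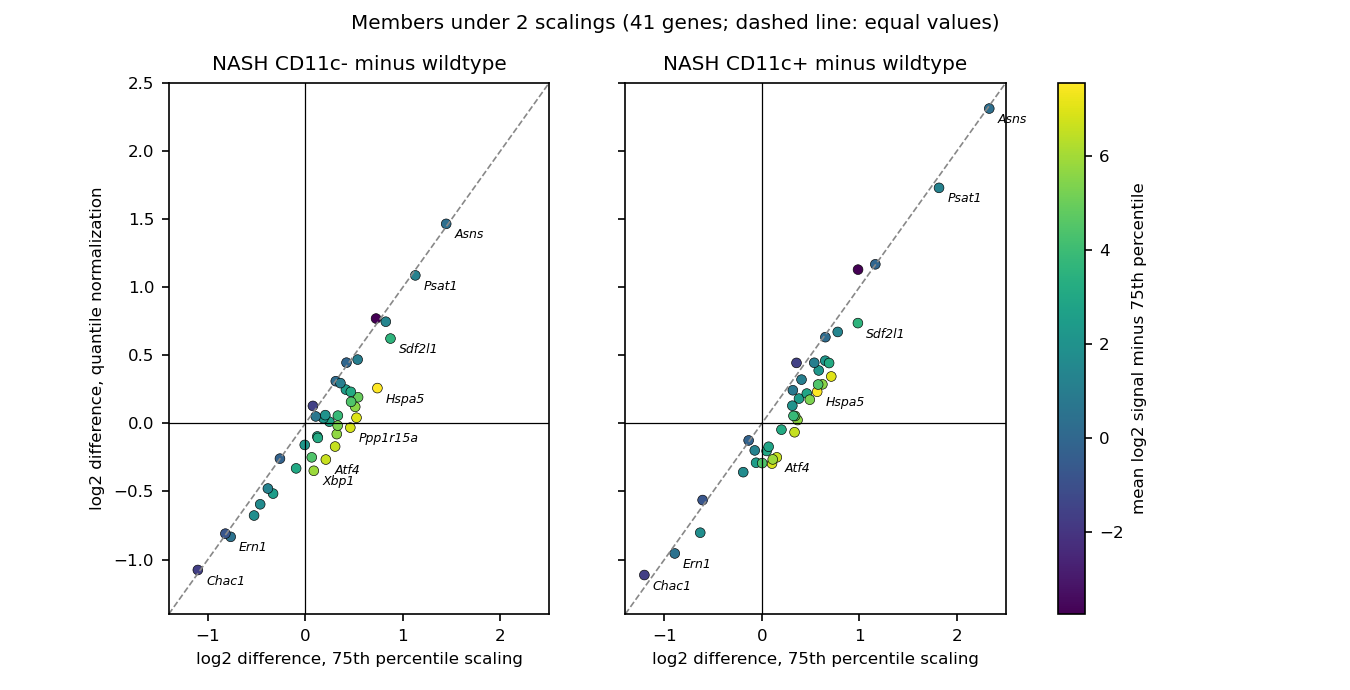
Log2 differences from wildtype of the 41 members under scaling to the 75th percentile (horizontal) and under quantile normalization (vertical), coloured by mean signal, with the dashed line marking equal values. Asns, Psat1, Ern1 and Chac1 lie near the line, while bright genes such as Hspa5 and Atf4 lie below it, Atf4 on the other side of 0.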

How the data were processed

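Spot intensity, as the background-corrected processed signal, and spot flags were read from the scanner files, per the file headers. Agilent Feature Extraction 10.7.3.1 is named in the submitters' processing notes. The deposited table holds log2 values. They matched the values computed here after subtraction of each probe's wildtype median, in the same direction (median absolute difference 0.00146, and under 0.00470 for nearly all values), with column medians of -0.20 to 0.41. It served as an alternative.

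The members and all gene lists were chosen with earlier results of these data known. From the files, control spots (3671 of 62976) and outlier spots (113 to 190 per array) were left out, the log2 signal was taken, spots of a probe were averaged and the 75th percentile of the array was subtracted. Probes were named through RefSeq accessions (assembly GRCm38.p6), which named 26582 of 55681 probes for 20145 genes, without its gene coordinates, as the file headers name another build. Mars was matched as Mars1 through a synonym. Probes well above background on at least 4 of 5 arrays of a group were kept (28175), and the brightest probe stood for its gene, which gave 13390 genes. Of the members, 7 had more than 1 kept probe.

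Groups were compared on all 15 arrays by the moderated linear model of limma 3.58.1 (lmFit, then eBayes; R 4.3.3), 2-sided, with Benjamini-Hochberg adjustment over all genes tested. A probe above background on no array of a group has only a bound there, taken per array from the dimmest signal that passed as above background, or from the probe itself where that was higher. The text names all members, the gene with the largest rise and the largest fall of each further list, and the 2 brightest markers of each cell type list. Replicate numbers of the labels were checked for pairing: correlations of same-numbered arrays' deviations ran from 0.06 to 0.37 (wildtype and NASH CD11c-negative), -0.20 to 0.29 (NASH groups) and -0.17 to 0.27 (wildtype and NASH CD11c-positive). Arrays of unlike number reached 0.30, 0.30 and 0.33. Deviations also followed the slide, and replicate 3 of NASH CD11c-positive cells lay on another slide than the other replicate 3 arrays. The check therefore cannot settle whether the numbers pair the arrays, and the main fit did not pair them. Each slide held all groups. Alternatives were background correction, normalization, filter, slide, pairing, samples fitted, probe summary, the deposited values and leaving out each array. Normexp used the median spot signal.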

Additional observations from a re-analysis of the deposited data

Results flagged for a closer look

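Single arrays stood apart from the other 4 of their group in 6 of 123 member and group combinations tested, where chance alone gives about 1 in 20. In NASH CD11c-positive cells this was replicate 2 for Trib3, at -0.403, below the next array at -0.19. In NASH CD11c-negative cells replicate 2 was high for Hyou1 at -1.39 (next -1.61), replicate 5 was high for Calr at 5.88 (next 5.71) and for Wars at 4.58 (next 4.46), replicate 3 was low for Pdia4 at 1.77 (next 2.14), and replicate 4 was low for Nars at 3.01 (next 3.13).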

How the results depend on the processing

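Over 27 alternatives, 3170 of 3318 values of single members kept their direction and side of the threshold, 80 no longer passed, 48 newly passed and 20 reversed. The cause of these changes was not tested. Quantile normalization gave 15 members higher and 15 lower in NASH CD11c-negative against wildtype cells, and 13 lower in NASH CD11c-positive against wildtype cells. It reversed Atf4 to -0.27, Xbp1 to -0.35, Ppp1r15a to -0.031, Hsp90b1 to -0.17, Canx to -0.079, Cars to -0.10, Gars to -0.016, Nars to -0.11 and Wars to -0.25 in NASH CD11c-negative against wildtype cells. In NASH CD11c-positive against wildtype cells it reversed Atf4 to -0.25, Xbp1 to -0.26, Ppp1r15a to -0.30, Hsp90b1 to -0.065, Dnajb9 to -0.17, Aars to -0.20, Nars to -0.046 and Wars to -0.29. The mean of all probes reversed Dnajb9 to -0.050 and -0.32 in these comparisons, and normexp reversed Yars to -0.15 between the NASH groups. The synthetase minus the ATF6/XBP1-type median was -0.19 in NASH CD11c-negative against wildtype cells with probes above background on all arrays, where Yars has no value. Between the NASH groups normexp gave -0.11 for the ATF4-type minus the ATF6/XBP1-type median and 0.00019 for the synthetases. In NASH CD11c-positive against wildtype cells the ATF4-type and the synthetase values were -0.059 and 0.011 with normexp and -0.14 and -0.013 on slide 2 alone, and the synthetase value was -0.036 under quantile normalization. Without single arrays they ran from -0.10 to 0.0012 and from 0.017 to 0.12, lowest without wildtype replicate 1. With slide 2 alone, Atf4 (0.10), Ppp1r15a (0.07) and Nars (0.13) did not pass in that comparison. With the replicate number as a block, 28 members rose and 8 fell in NASH CD11c-negative against wildtype cells, 22 and 6 between the NASH groups and 30 and 6 in NASH CD11c-positive against wildtype cells. Naming probes by a symbol column was not run, as the files used hold none. Dim signal limited Yars, Cth and Slc7a11, which were not above background in some groups.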

Other observations

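The genes that act on eIF2 alpha and on the sensors moved in part. Of 19 measured, 11 rose and 3 fell against wildtype in NASH CD11c-negative cells, 13 rose and 2 fell in NASH CD11c-positive cells, and 4 rose and 1 fell in CD11c-positive against CD11c-negative NASH cells. Among all genes tested, 48.3, 51.4 and 29.9% were higher in these comparisons, and 28.5, 26.3 and 23.2% lower. Rtcb, the ligase that joins the Xbp1 exons after IRE1 has cut them, rose by 1.05 ± 0.04 (2.07-fold) and 1.02 ± 0.04 (2.02-fold) against wildtype, while Ern1 fell and Xbp1 did not pass. Mbtps2, a protease that cleaves ATF6, fell by -0.33 ± 0.04 and -0.28 ± 0.04. Between the NASH groups, Creb3l2, an ATF6 relative, rose by 0.30 ± 0.05 and Traf2, an adaptor of IRE1, fell by -0.16 ± 0.05.

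Mitochondrial chaperones and proteases rose in 8 of 10 genes in NASH CD11c-negative and in 10 of 10 in NASH CD11c-positive cells against wildtype, with none lower. In CD11c-positive against CD11c-negative NASH cells 5 were higher and 1 lower. The shares of all genes in these comparisons were 48.3, 51.4 and 29.9% higher, and 28.5, 26.3 and 23.2% lower. The chaperonin subunits Hspe1 and Hspd1 led, Hspe1 by 0.78 ± 0.04 in NASH CD11c-negative and Hspd1 by 0.86 ± 0.04 in NASH CD11c-positive cells. The protease genes Afg3l2 and Yme1l1 went apart between the NASH groups, at 0.32 and -0.17. Of 16 measured mitochondrial tRNA synthetases 5 rose and 4 fell against wildtype in NASH CD11c-negative cells and 9 rose and 2 fell in NASH CD11c-positive cells, and 7 were higher and none lower between the NASH groups. Ears2 (0.61 and 0.55) and Wars2 (-0.91 and -0.54) stood at the ends of that list against wildtype. Wars2 also had its largest rise between the NASH groups, by 0.37.

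Further marker sums, in wildtype, NASH CD11c-negative and NASH CD11c-positive cells, were 118 to 129, 316 to 356 and 245 to 262 for 7 measured monocyte markers, and 229 to 246, 209 to 255 and 195 to 233 for 6 plasmacytoid dendritic cell markers. They were 328 to 351, 331 to 360 and 277 to 296 for 10 hepatocyte markers, a sum mostly of Trf, 290 to 316, 176 to 185 and 117 to 121 for 8 sinusoidal endothelial markers, and 37.9 to 39.8, 28.8 to 34.7 and 28.7 to 31.8 for 9 measured T and natural killer cell markers. Against wildtype, 3 hepatocyte markers rose and 5 fell in NASH CD11c-negative cells (median -0.29), and 0 rose and 7 fell in NASH CD11c-positive cells (median -0.68). The brightest markers of each list were Cd5l and Vsig4 (Kupffer), S100a9 and S100a8 (neutrophil), Wdfy4 and Batf3 (dendritic), Jchain and Cd79b (B and plasma cell), Cx3cr1 and Plac8 (monocyte), Siglech and Bst2 (plasmacytoid), Trf and Serpina1a (hepatocyte), Clec4g and Stab2 (endothelial), and Nkg7 and Cd4 (T and natural killer cell). Mean signals of S100a9 in the 3 groups were 7.71, 9.52 and 8.39, and of Jchain 5.21, 4.37 and 3.34.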
